A study of Mus musculus with 80 samples.

Results

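The genes described here are the phase II conjugation enzymes of mouse liver. They were taken as every row of the count table whose symbol begins with Ugt1, Ugt2, Ugt3 or with Sult and a digit, or is a Gst gene of the alpha, kappa, mu, omega, pi, theta or zeta class. The rule found 52 of the 20105 genes listed: 21 glutathione S-transferases (Gst), 19 cytosolic sulfotransferases (Sult) and 12 UDP-glucuronosyltransferases (Ugt). The symbols alone decide membership, and no measured value enters the rule. The libraries are of nuclear RNA from livers of 2 lines of female mice, HEP-INTACT, whose hepatocyte nuclei carry a purification tag, and MAC-INTACT, whose macrophage nuclei carry it. Mice were fasted for 3, 8, 16 or 24 h from zeitgeber time 12, the start of the active phase, and livers were taken at zeitgeber times 15, 20, 4 and 12. Mice fed ad libitum and killed at the same hours were the controls. Each line gave 8 groups of 4 tagged libraries, fasted and fed at each time, so 32 libraries per cell type. A further 16 libraries held unpurified liver nuclei, 1 pool of 4 mice per condition and line. The labels give neither the alleles that drive the tag nor the ages of the mice. Nor do they state how many mice stand behind a tagged library, so p-values measure the spread between these libraries.

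Phase II enzymes attach a polar group to drugs, hormones, bile pigments and products of lipid oxidation, which makes them easier to excrete in bile or urine. Glutathione S-transferases couple glutathione to reactive electrophiles, sulfotransferases move a sulfate group from the donor PAPS to phenols, steroids and bile acids, and UDP-glucuronosyltransferases add glucuronic acid to bilirubin, steroids and many drugs. In the liver the hepatocyte is the main site of all 3 reactions, and the nuclear receptors PXR and CAR and the oxidant sensor NRF2 are known to act on many of these genes. The libraries hold nuclear RNA that was not selected for polyadenylation, so that values reflect RNA in the nucleus, introns included, and not the enzymes themselves.

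Total counts were 12597786 to 30089561 in hepatocyte-tagged libraries, 14968505 to 44694933 in macrophage-tagged libraries and 13246494 to 35514304 in pools. The labelled cell types had their markers. Summed over 18 markers of Kupffer cells and macrophages, the mean level was 207 CPM, that is counts scaled by the library's total, in hepatocyte-tagged libraries. It was 8070 CPM in macrophage-tagged libraries and 593 CPM in the pools of the macrophage line, with no marker at 0. Against those pools, 12 lymphocyte markers (Ptprc among them) summed to 726 against 69.5 CPM, and 8 of monocytes and neutrophils to 101 against 7.22 CPM. The sinusoidal endothelial sum was 1021 against 1069 CPM. Lower than in those pools were the stellate (100 against 198 CPM) and cholangiocyte sums (162 against 353 CPM). Hepatocyte RNA was present in the macrophage-tagged libraries too: 17 hepatocyte markers summed to a mean of 22200 CPM in fasted and 18350 CPM in fed hepatocyte-tagged libraries. In macrophage-tagged libraries they summed to 12020 CPM (range 7852 to 19820) in fasted and 8080 CPM (range 5259 to 13130) in fed ones. Some libraries stood apart from the others of their group over all genes. The largest mean distances were those of macrophage fasted 3 h replicate 3 (standard deviation of the log2 CPM difference to the others 0.797) and hepatocyte fasted 16 h replicate 3 (0.645). In these bulk libraries, fewer cells of a type and less RNA per cell cannot be told apart.

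In fed hepatocyte nuclei the alpha-class gene Gsta3 had the highest level per length of gene, 55.6 CPM per kilobase as a mean of 16 libraries. The phenol sulfotransferase Sult1a1 followed with 30.4 CPM per kilobase, and the bile acid sulfotransferase Sult2a8 with 20.7 CPM per kilobase. Next came Gstz1, a zeta-class enzyme of tyrosine breakdown, with 15.9 CPM per kilobase, then Ugt2b5, a steroid-conjugating enzyme, with 14.3, and Gstm1 of the mu class with 13.1 CPM per kilobase. At the other end, Sult6b1 had 0.000356 and Ugt2a1 0.000191 CPM per kilobase in fed hepatocyte nuclei. Together the 52 genes took 0.361% ± 0.061 of all counts in fasted and 0.444% ± 0.068 in fed hepatocyte-tagged libraries (SD, n = 16 each), and 0.205% ± 0.053 in fasted and 0.202% ± 0.046 in fed macrophage-tagged libraries (SD, n = 16 each). The row named Ugt1a10, on chromosome 1 from 88055410 to 88220002 of mm10, spans 8 other coding genes of the Ugt1a cluster in the GENCODE annotation, which share their last exons, and is called the Ugt1a locus below. Reads of neighbouring paralogs within the Gstm, Gstp, Sult2a and Ugt2b clusters may be shared. Gstz1 overlaps Pomt2, and the Ugt1a locus Dnajb3, on the opposite strand, and the labels do not say whether counting used the strand. In the GENCODE annotation Gsto1 and Gsto2 also overlap the coding gene Cfap43, Sult1a1 overlaps Sgf29, Sult5a1 Gm20388, Gstt3 Gm20441, and Ugt2a1 Gm43638 and Ugt2a2. No other row of the count table overlaps the rows of these genes. The part of such overlaps in the values was not tested.

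**Figure D1:**
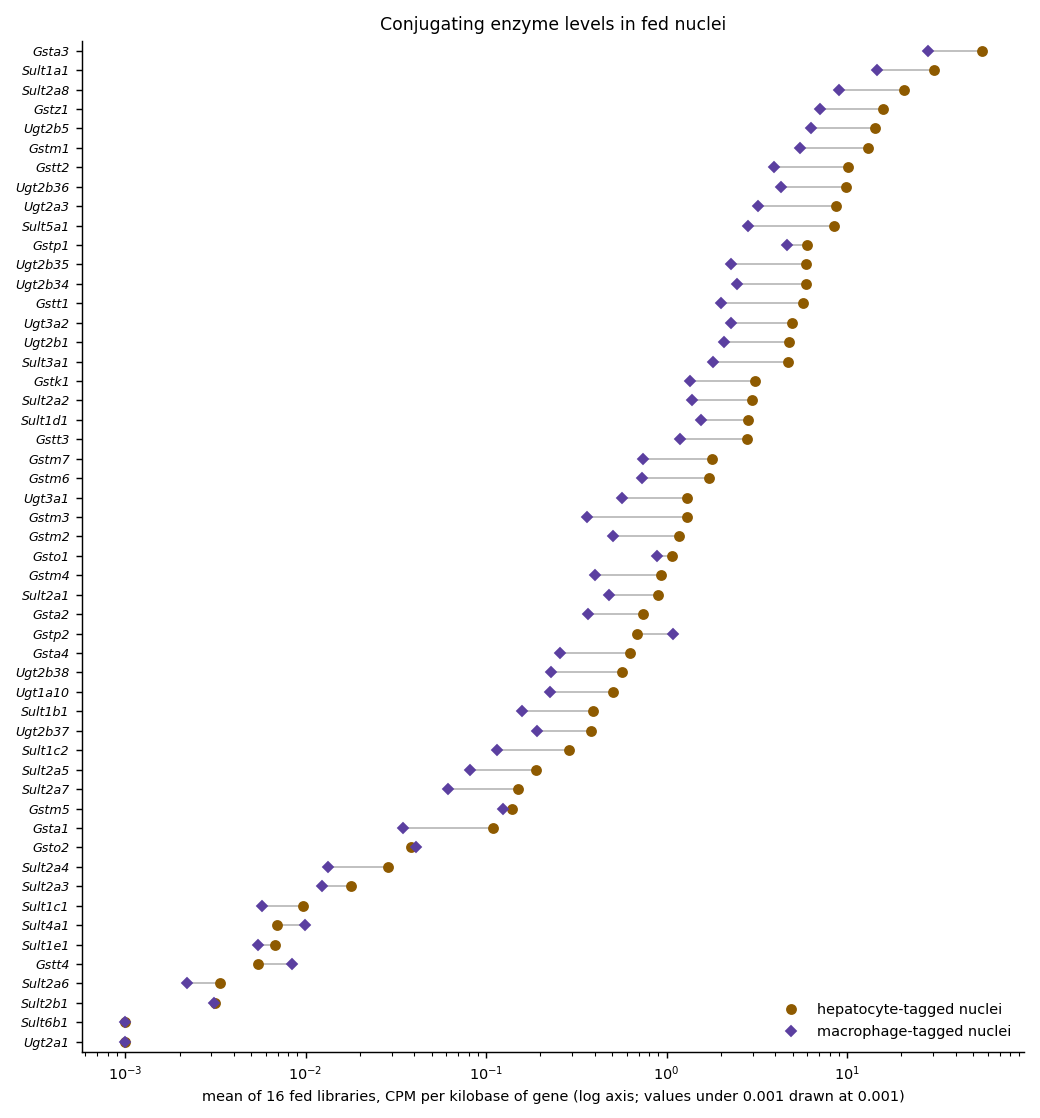
Mean level of each gene in 16 fed libraries of hepatocyte-tagged nuclei (circles) and of macrophage-tagged nuclei (diamonds), in CPM per kilobase of gene on a log axis; genes are ordered by the hepatocyte value. Gsta3 leads with 55.6 CPM per kilobase in hepatocyte nuclei, and most circles lie to the right of their diamonds.

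Of the 52 genes, 45 had enough counts to be tested in hepatocyte nuclei. The other 7 (Gstm5, Gstt4, Sult2a6, Sult2b1, Sult4a1, Sult6b1 and Ugt2a1) had means of 0.00599 to 0.395 CPM in fed hepatocyte libraries. A gene is called here when its edgeR quasi-likelihood test, adjusted by the Benjamini-Hochberg (BH) method over all genes tested, gave p under 0.05, and each log2 difference is fasted minus fed, with its standard error and 4 libraries a group. At 3 h of fasting 21 of the 45 were called, 5 higher and 16 lower, while 39.9% of all 12942 genes tested were called, 19.5% higher and 20.4% lower. At 8 h 20 were called, 9 higher and 11 lower, against 38.7% of all genes, 18% higher and 20.7% lower. At 16 h only 7 were called, 2 higher and 5 lower, beside 18.1% of all genes, 9.55% higher and 8.55% lower. At 24 h 14 were called, 5 higher and 9 lower, beside 24% of all genes, 11.6% higher and 12.4% lower. The 4 counts are 46.7%, 44.4%, 15.6% and 31.1% of the 45 genes, so that the family of enzymes as a whole was called about as often as genes at large.

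Markers listed for other liver cells, none at 0 in hepatocyte-tagged libraries, moved as well. Summed over 9 cholangiocyte markers the mean was 212 CPM (range 95.7 to 460) in fasted and 476 CPM (range 336 to 700) in fed libraries. Purification did not lower this sum, which was 344 CPM over all hepatocyte-tagged libraries and 328 CPM in the pools of that line, while the macrophage sum was 207 CPM in tagged libraries and 604 CPM in those pools. Of the 7 of these markers tested 2, 3, 1 and 2 were called lower at the 4 times and none higher. Summed over 18 macrophage markers it was 217 CPM (range 147 to 263) in fasted and 197 CPM (range 149 to 275) in fed libraries, and of the 17 tested 2, 6, 1 and 2 were called higher and 1, 0, 0 and 1 lower. Of 12 sinusoidal endothelial markers 1, 3, 2 and 6 were called higher and none lower. Of 11 stellate markers 0, 0, 0 and 1 were called higher and 1, 1, 2 and 2 lower. At 16 h the stellate sum was 50.2 CPM (range 40.6 to 60.2) in fasted and 111 CPM (range 87.1 to 153) in fed libraries, without overlap. Their part in the differences of the conjugation genes was not tested.

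Within the total the counts are given by family. At 3 h 13 of 19 tested Gst genes were called, 11 of them lower and 2 higher, with a median log2 difference of -0.87 where the median of all genes tested was -0.03. Of 15 tested Sult genes 3 were called higher and 2 lower at 3 h, and of 11 tested Ugt genes 3 were called lower. By 24 h the Gst genes numbered 3 higher and 2 lower, the Sult genes 2 higher and 4 lower, and the Ugt genes 3 lower. Of all genes tested, 19.5% were called higher and 20.4% lower at 3 h, and 11.6% higher and 12.4% lower at 24 h. Summed over the family, Gst RNA at 3 h was 1428 ± 150.3 CPM (range 1293 to 1629) in fasted hepatocyte libraries. It was 2464 ± 301 CPM (range 2255 to 2906) in fed ones (SD, n = 4 each), without overlap. A single gene, Gsta3, weighs heavily in such a sum. In the 3 h pools of the hepatocyte line it held 825.8 of 1240 CPM fasted and 1543 of 2115 CPM fed. The 3 h call of Gsta3 was lost in every fit that left out 1 library. The sum therefore does not show a fall of the family as a whole. The share of all genes called at least once over the 4 times was not counted, so the numbers that follow cannot be set against genes at large. Over the 4 times 33 of the 45 genes were called at least once: 8 only higher, 21 only lower, and 4 (Gstm7, Sult1a1, Ugt2b34 and Ugt2b35) in both directions. The other 12 (Gsta2, Gstt2, Gstt3, Gstz1, Sult2a2, Sult2a3, Sult2a4, Sult2a5, Ugt2b36, Ugt2b38, Ugt3a1 and Ugt3a2) were called by edgeR at no time, among them highly expressed Gstz1 and Ugt2b36. DESeq2 called Sult2a2, Sult2a4 and Ugt2b38 of these 12, each at 8 h.

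**Figure D2:**
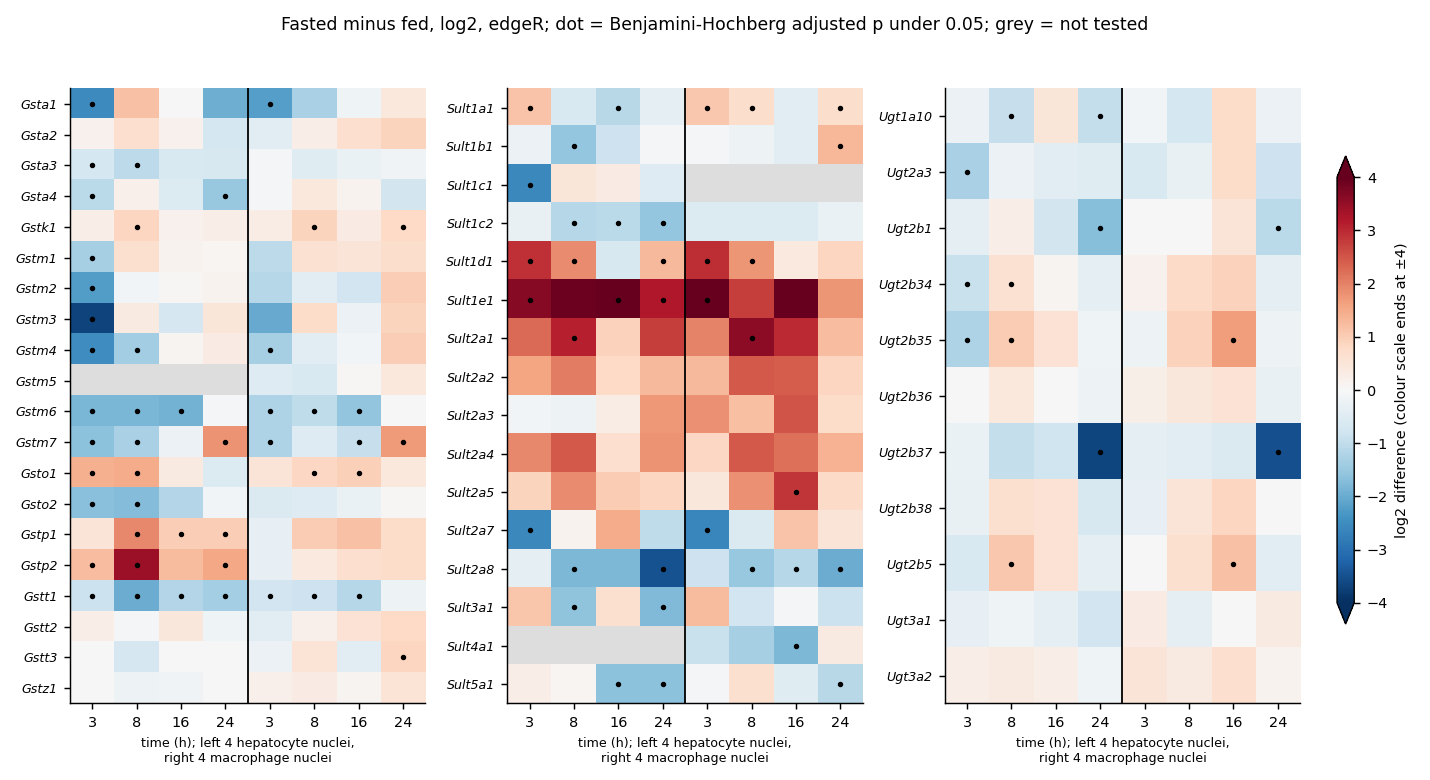
Log2 difference, fasted minus fed, of each tested gene (rows; 1 panel per family) at 3, 8, 16 and 24 h in hepatocyte nuclei (left 4 columns of a panel) and macrophage nuclei (right 4 columns). Dots mark BH-adjusted p under 0.05 by edgeR and grey cells were not tested; the Gst panel has 11 dots on lower cells at 3 h in hepatocyte nuclei, more than in its other columns.

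The mu-class genes, a cluster of glutathione S-transferases on chromosome 3, fell together early in the fast. All 6 that could be tested (Gstm1, Gstm2, Gstm3, Gstm4, Gstm6 and Gstm7) were called lower at 3 h in hepatocyte nuclei. At that time Gstm3 had 0.632, 0.371, 0.693 and 1.61 CPM in the 4 fasted libraries, against 13.8, 10.1, 11.7 and 11.7 CPM in the 4 fed libraries. The 2 groups did not overlap, and the log2 difference was -3.70 ± 0.68 (edgeR BH-adjusted p = 9.37e-05). Gstm4 stood at 0.553, 1.27, 0.426 and 1.26 CPM in the 4 fasted libraries, against 7.01, 5.002, 5.38 and 4.57 CPM in the 4 fed libraries. These groups did not overlap either, and the log2 difference was -2.48 ± 0.39 (edgeR BH-adjusted p = 1.19e-05). The best expressed of them, Gstm1, had 23.4, 31.4, 30.5 and 42.5 CPM in the 4 fasted libraries, against 104, 83.8, 95.2 and 85.0 CPM in the 4 fed libraries. Every fasted library of Gstm1 lay below every fed library, with a log2 difference of -1.33 ± 0.42 (edgeR BH-adjusted p = 0.0125), and Gstm2 fell by -2.23 ± 0.50 on the log2 scale (edgeR BH-adjusted p = 0.000832). Gstm3, Gstm1 and Gstm2 were called at no later time, and Gstm4 was called again at 8 h (-1.39 ± 0.35).

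Gstm6 and Gstm7 followed the clock hour as well as the fast. Gstm6 was called lower at 3, 8 and 16 h, by -1.83 ± 0.37, -1.83 ± 0.34 and -1.88 ± 0.35 on the log2 scale. At 8 h it had 4.87, 4.36, 6.11 and 1.06 CPM in the 4 fasted libraries, against 13.3, 15.5, 14.3 and 16.4 CPM in the 4 fed libraries, without overlap (edgeR BH-adjusted p = 0.000111). At 24 h, when fed Gstm6 was itself low at 1.64 ± 0.53 CPM (SD, n = 4), fasted libraries averaged 1.61 ± 0.39 CPM (SD, n = 4). Gstm7 changed direction: it was called lower at 3 h (-1.65 ± 0.33) and at 8 h (-1.29 ± 0.32), and higher at 24 h (1.80 ± 0.40, edgeR BH-adjusted p = 0.00164). At 3 h Gstm7 had 3.12, 2.49, 4.05 and 2.31 CPM in the 4 fasted libraries, against 14.9, 9.21, 9.74 and 9.61 CPM in the 4 fed libraries. At 24 h it had 2.52, 2.52, 3.42 and 4.68 CPM in the 4 fasted libraries, against 1.10, 2.12, 0.378 and 0.236 CPM in the 4 fed libraries. The groups did not overlap at either time, and the fasted means of 2.99 and 3.29 CPM at 3 and 24 h lay between the fed means of 10.9 and 0.96 CPM at those times.

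The pi-class genes Gstp1 and Gstp2, neighbours on chromosome 19, and the omega-class gene Gsto1, a thioltransferase that also reduces dehydroascorbate, went the other way. At 8 h in hepatocyte nuclei Gstp2 had 10.2, 17.2, 8.87 and 21.6 CPM in the 4 fasted libraries, against 1.22, 1.74, 0.919 and 1.65 CPM in the 4 fed libraries. The lowest fasted library exceeded the highest fed library several times over, and the log2 difference was 3.42 ± 0.46 (edgeR BH-adjusted p = 1.57e-06). Gstp1 had 62.1, 59.5, 67.6 and 35.9 CPM in the 4 fasted libraries, against 14.6, 20.6, 11.2 and 13.3 CPM in the 4 fed libraries. On the log2 scale the difference was 1.93 ± 0.32 (edgeR BH-adjusted p = 2.32e-05) without overlap. Smaller differences were called for Gstp2 at 3 h (1.24 ± 0.44) and 24 h (1.54 ± 0.47) and for Gstp1 at 16 h (0.99 ± 0.31) and 24 h (0.98 ± 0.31). Each of these calls was lost in 4 or 5 of the 8 fits that left out 1 library, where the log2 differences lay between 0.76 and 1.45, and that of Gstp1 at 16 h also in a fit to the 8 libraries of that time alone (0.99). Gsto1 rose at both early times. At 3 h it had 15.8, 20.7, 18.9 and 17.7 CPM in the 4 fasted libraries, against 8.82, 8.35, 7.96 and 6.59 CPM in the 4 fed libraries. The log2 difference was 1.41 ± 0.23 (edgeR BH-adjusted p = 2.22e-05). No fasted library overlapped the fed ones, and at 8 h the difference was 1.50 ± 0.24 (edgeR BH-adjusted p = 1.34e-05). Its neighbour Gsto2, at under 1 CPM on average, was called lower at 3 h (-1.68 ± 0.49) and 8 h (-1.73 ± 0.51), the second call lost without fed replicate 3 (log2 difference -1.32).

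The promoter windows of Gstp1 and Gstp2 are shown so that these neighbours can be compared, and those of Gstm3 and Sult1d1 as genes that moved early in opposite directions. They come from RefSeq (build GRCm38.p6), which gave a window for 45 of the 52 genes, each of 300 bases, 250 before the start of transcription and 50 from it, read 5′ to 3′ on the gene's strand. Capitals mark matches to the motifs searched. Gstm3 lies on the minus strand at chr3:107969125-107969424, Gstp1 at chr19:4037863-4038162, Gstp2 at chr19:4042172-4042471 and Sult1d1, described with the sulfotransferases, at chr5:87568957-87569256, all on the minus strand.
Gstm3: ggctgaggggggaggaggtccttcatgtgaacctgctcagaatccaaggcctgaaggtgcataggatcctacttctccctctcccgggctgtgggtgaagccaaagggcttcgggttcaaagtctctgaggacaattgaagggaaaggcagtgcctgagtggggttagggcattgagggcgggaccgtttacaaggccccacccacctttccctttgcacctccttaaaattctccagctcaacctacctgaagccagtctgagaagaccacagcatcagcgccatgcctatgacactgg
Gstp1: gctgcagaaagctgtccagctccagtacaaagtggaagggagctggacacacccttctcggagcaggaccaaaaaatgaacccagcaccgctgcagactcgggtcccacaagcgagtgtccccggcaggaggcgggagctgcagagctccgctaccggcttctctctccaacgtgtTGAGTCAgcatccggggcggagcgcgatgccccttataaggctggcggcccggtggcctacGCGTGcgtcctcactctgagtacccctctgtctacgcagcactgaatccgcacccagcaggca
Gstp2: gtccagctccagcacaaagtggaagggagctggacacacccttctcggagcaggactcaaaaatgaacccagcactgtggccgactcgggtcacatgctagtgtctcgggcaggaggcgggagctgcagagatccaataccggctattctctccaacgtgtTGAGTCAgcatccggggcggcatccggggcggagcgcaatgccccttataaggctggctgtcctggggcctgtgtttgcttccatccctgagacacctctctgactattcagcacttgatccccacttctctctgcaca
Sult1d1: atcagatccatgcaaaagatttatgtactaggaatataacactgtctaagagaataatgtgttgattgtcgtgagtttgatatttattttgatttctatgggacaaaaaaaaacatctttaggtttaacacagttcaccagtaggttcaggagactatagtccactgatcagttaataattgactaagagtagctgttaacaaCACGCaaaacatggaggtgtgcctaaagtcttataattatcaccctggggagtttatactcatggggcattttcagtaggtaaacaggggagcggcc

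Gstp1 and Gstp2 both held a match to the AP-1 motif TGANTCA, starting 74 bases before the start in Gstp1 and 89 before it in Gstp2, and shared a longest identical run of 43 bases that does not include it. The match lies inside another, shorter run that is identical in both windows. The motif was added to the search after the sequences had been seen. Over all 32851 promoters of this length 7.81% held TGANTCA on either strand, and 8 of the 45 windows did (17.8%). The other motifs searched on both strands were the antioxidant response element TGACNNNGC (2 of 45 windows, 12.4% of all promoters), the E-box CACGTG (0 of 45, 7.15%), the D-box TTANGTAA (2 of 45, 2.32%), the xenobiotic response core GCGTG (7 of 45, 32.4%) and a direct repeat of the nuclear receptor half-site spaced by a single base (0 of 45, 0.0396%). Gstp1 held GCGTG, Sult1d1 held it on the other strand, and the Gstm3 window held none of the 6. Gstm3 shared no run longer than 10 bases with Gstm1 and 7 bases with Gstm7. These are matches of letters and not measured binding.

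Among the remaining classes, the theta-class gene Gstt1 was the only one of the 45 called at all 4 times, each time lower. At 8 h it had 26.0, 17.3, 27.2 and 10.3 CPM in the 4 fasted libraries, against 79.7, 95.3, 79.7 and 66.9 CPM in the 4 fed libraries. No fasted library reached the lowest fed library, and the log2 difference was -1.98 ± 0.27 (edgeR BH-adjusted p = 1.51e-06). At 3, 16 and 24 h Gstt1 fell by -0.87 ± 0.26, -1.18 ± 0.26 and -1.37 ± 0.26 on the log2 scale, the 3 h call being lost without fasted replicate 3 (log2 difference -0.66). Gstt2 and Gstt3 were not called. Gsta3, the best expressed of all these genes, fell at 8 h. It had 429.5, 595, 368 and 338 CPM in the 4 fasted libraries, against 755, 1147, 939 and 829 CPM in the 4 fed libraries. Its log2 difference was -1.05 ± 0.29 (edgeR BH-adjusted p = 0.00515) without overlap. Its call at 3 h (-0.72 ± 0.29) was lost in 8 of the 8 fits that left out 1 library (log2 difference -0.78 to -0.55), with RLE scaling (-0.70) and with no filter on low counts (-0.71).

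Gsta4, which is known for clearing aldehydes made by lipid peroxidation, was called lower at 3 h (-1.06 ± 0.30) and at 24 h. At 24 h it had 3.68, 3.85, 5.02 and 5.40 CPM in the 4 fasted libraries, against 10.8, 13.9, 13.7 and 10.3 CPM in the 4 fed libraries, without overlap. On the log2 scale the difference was -1.53 ± 0.31 (edgeR BH-adjusted p = 0.000813). Gsta1 had 0.435, 0.159, 0.746 and 0.349 CPM in the 4 fasted libraries, against 4.07, 1.15, 3.82 and 2.60 CPM in the 4 fed libraries at 3 h. These groups did not overlap, and the log2 difference was -2.56 ± 0.77 (edgeR BH-adjusted p = 0.0095), and Gsta2 was not called. Gstk1, a kappa-class enzyme of mitochondria and peroxisomes, rose at 8 h by 0.85 ± 0.19 on the log2 scale (edgeR BH-adjusted p = 0.000722). Gstz1 had a mean of 258 CPM in fasted and 278 CPM in fed hepatocyte libraries over all times and was not called.

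**Figure D3:**
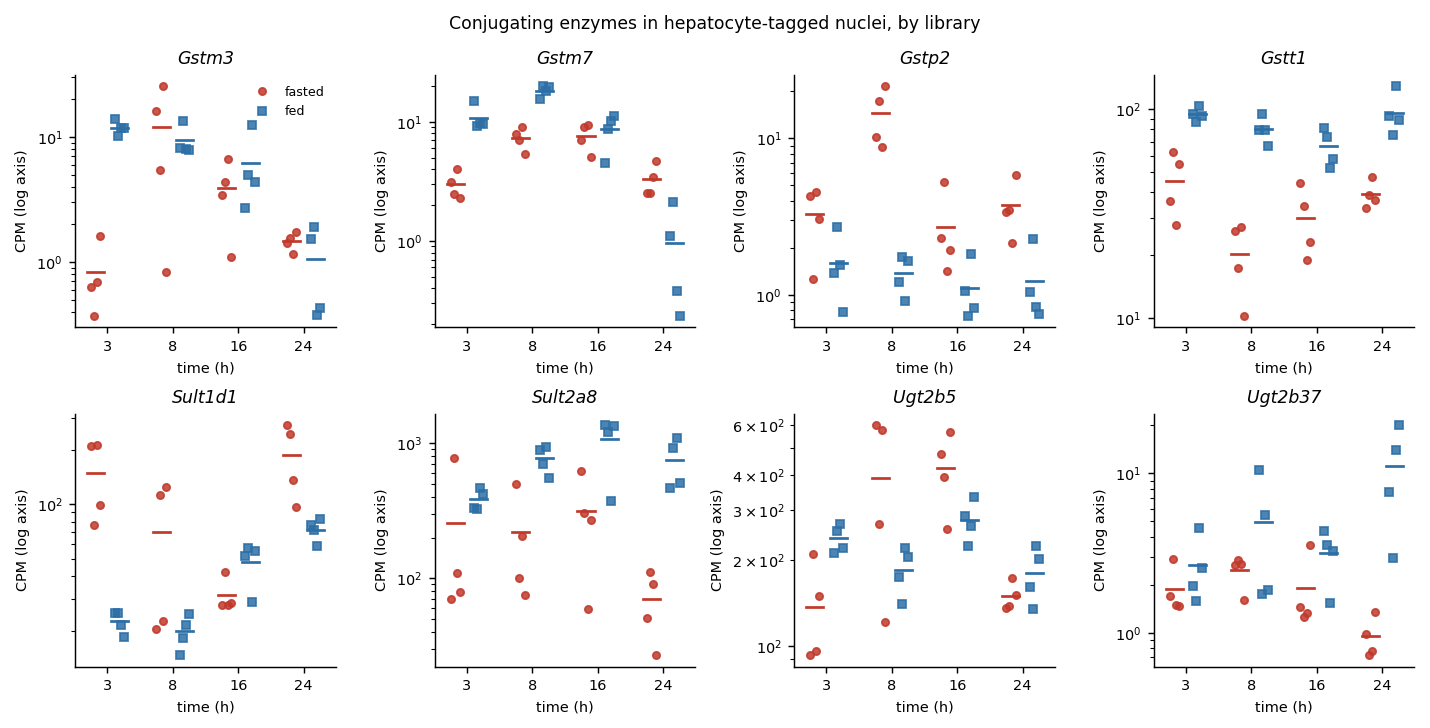
CPM on a log axis in each hepatocyte-tagged library for 8 genes at 3, 8, 16 and 24 h, with fasted libraries as circles left of fed libraries as squares and short lines at the group means (n = 4 per group). Gstm3 separates at 3 h, Gstp2 and Gstt1 at 8 h in opposite directions, and Ugt2b37 at 24 h.

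In the Sult1 family the catecholamine-sulfating enzyme Sult1d1 rose most clearly. At 3 h in hepatocyte nuclei it had 209, 76.5, 212 and 99.1 CPM in the 4 fasted libraries, against 25.2, 25.1, 21.6 and 18.4 CPM in the 4 fed libraries. All fasted libraries were above all fed libraries, replicates 1 and 3 the most, and the log2 difference was 2.94 ± 0.48 (edgeR BH-adjusted p = 2.24e-05). At 8 h it had 20.5, 112, 22.6 and 125 CPM in the 4 fasted libraries, against 14.7, 18.3, 21.6 and 24.6 CPM in the 4 fed libraries. Fasted replicates 2 and 4 were then far above the fed range and replicates 1 and 3 within it, for a log2 difference of 1.90 ± 0.47 (edgeR BH-adjusted p = 0.00199). The call at 24 h (1.30 ± 0.45) was lost in 6 of the 8 fits that left out 1 library (log2 difference 1.05 to 1.36) and with no filter on low counts (1.31).

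Sult1a1, the main phenol sulfotransferase, changed direction between early and late fasting. At 3 h it had 154, 154, 167 and 163 CPM in the 4 fasted libraries, against 73.8, 75.7, 94.4 and 88.7 CPM in the 4 fed libraries. Its log2 difference was 1.14 ± 0.31 (edgeR BH-adjusted p = 0.004) with no overlap. At 16 h it had 21.6, 45.0, 43.9 and 29.3 CPM in the 4 fasted libraries, against 79.4, 89.95, 68.3 and 52.1 CPM in the 4 fed libraries. Again the groups did not overlap, now with the fasted libraries below, and the log2 difference was -1.10 ± 0.31 (edgeR BH-adjusted p = 0.0134), lost without fed replicate 2 (log2 difference -0.97). The test of whether the fasting effect differs between times gave an edgeR BH-adjusted p of 0.00159 for Sult1a1.

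The estrogen sulfotransferase Sult1e1 was at or near 0 in most fed hepatocyte libraries and higher in fasted ones. Over a fed group its level was at most 0.307 CPM, so it passed the count filter through fasted libraries. Its entry into the test therefore favoured this direction, and the counts of genes called higher at 3, 16 and 24 h include it. At 24 h it had 118, 70, 42 and 16 counts in the 4 fasted libraries, against 8, 6, 4 and 5 counts in the 4 fed libraries. All 4 fasted libraries were above all fed libraries at that time, with sums of 246 and 23 counts, and the log2 difference was 3.21 ± 0.98 (edgeR BH-adjusted p = 0.0186), lost without fasted replicate 1 or fed replicate 3 (log2 difference 2.41 to 2.95). At 3 h the sums were 72 counts in fasted and 7 in fed libraries, with 31 and 38 of the 72 in replicates 1 and 3, and the log2 difference was 3.63 ± 1.24 (edgeR BH-adjusted p = 0.0216), lost without fasted replicate 3 or fed replicate 4 (log2 difference 2.89 to 3.34). At 16 h fasted libraries held 84 counts, 77 of them in replicate 3, and fed libraries none, which makes the fasted level at least 26.1-fold higher when 3 counts over the fed group are taken as the limit. That call was lost without fasted replicate 3, the library that stood apart over all genes. At 8 h the sums were 22 and 1 counts in fasted and fed libraries, and Sult1e1 was not called.

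The other Sult1 genes that were called fell. Sult1b1, which acts on thyroid hormones, had 2.64, 2.87, 1.35 and 4.41 CPM in the 4 fasted libraries, against 7.08, 6.96, 12.8 and 6.97 CPM in the 4 fed libraries at 8 h. Its groups did not overlap, and the log2 difference was -1.55 ± 0.36 (edgeR BH-adjusted p = 0.00126). Sult1c2 was called lower at 8, 16 and 24 h (-1.14 ± 0.36, -1.07 ± 0.33 and -1.54 ± 0.35). The 24 h groups overlapped, since fasted replicate 4 had 2.30 CPM and fed replicate 4 had 1.65 CPM. The 8 h call of Sult1c2 was lost without fasted replicate 4 (log2 difference -0.97) and the 16 h call without fed replicate 1, fasted replicate 3 or fasted replicate 4 (log2 difference -0.998 to -0.94). Sult1c1, at under 1 CPM in every library at 3 h, was called lower there (-2.56 ± 0.71).

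The Sult2a genes, a cluster on chromosome 7 whose enzymes sulfate hydroxysteroids and bile acids, did not all move one way: Sult2a7 and Sult2a8 were called lower and Sult2a1 higher. Sult2a8, a bile acid sulfotransferase of the mouse, was called lower at 8 and 24 h. At 16 h edgeR did not call it, while the authors' deposited table gave a log2 fold change of -1.81 (authors' adjusted p = 0.0105). At 24 h it had 50.7, 111, 90.4 and 27.0 CPM in the 4 fasted libraries, against 463, 929, 1099 and 507 CPM in the 4 fed libraries. The highest fasted library lay far below the lowest fed one, and the log2 difference was -3.49 ± 0.74 (edgeR BH-adjusted p = 0.00121). At 8 h Sult2a8 had 503, 101, 207 and 74.8 CPM in the 4 fasted libraries, against 895, 700.5, 937 and 555 CPM in the 4 fed libraries, also without overlap, but that call (-1.81 ± 0.70, edgeR BH-adjusted p = 0.0403) was lost in 6 of the 8 fits that left out 1 library (log2 difference -1.85 to -1.52) and with no filter on low counts (-1.79). Sult2a7, at lower levels, was called lower at 3 h with 0.198, 0.424, 0.853 and 0.419 CPM in the 4 fasted libraries, against 2.65, 4.64, 3.60 and 1.87 CPM in the 4 fed libraries and a log2 difference of -2.57 ± 0.78 (edgeR BH-adjusted p = 0.00962).

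Sult2a1 to Sult2a5 varied widely between libraries of 1 group, and of them edgeR called Sult2a1 at 8 h in tagged hepatocyte nuclei and no other. Within groups of 4 hepatocyte libraries their coefficient of variation had medians of 76.7% to 98.8%, against a median of 29.9% over the 41 of these genes at 1 CPM or more and 15.3% over all 11486 genes at that level. For most of these genes the same library was highest: in the 8 hepatocyte groups the library with the most Sult2a1 also had the most Sult2a4 in 8, the most Sult2a2 in 7 and the most Sult2a5 in 5. It had the most Sult2a3 in only 3 and the least in 1, and it had the least Sult2a8 in 4. Reads shared between these paralogs could not be told apart from levels that move together. At 8 h Sult2a1 had 8.78, 241, 118 and 90.3 CPM in the 4 fasted libraries, against 9.23, 10.3, 17.5 and 17.5 CPM in the 4 fed libraries. Fasted replicate 1 was below all fed libraries and the other three far above, and the call (3.12 ± 1.10, edgeR BH-adjusted p = 0.0257) was lost without fasted replicate 2, fed replicate 1 or fed replicate 2 (log2 difference 2.47 to 3.00). Sult2a2, Sult2a3, Sult2a4 and Sult2a5 were called by edgeR at no time in tagged hepatocyte nuclei, whereas DESeq2 called Sult2a2 and Sult2a4 at 8 h and Sult2a1 also at 3 and 24 h.

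Unpurified pools, each an average over 4 mice, were compared too; the labels do not say whether they hold the mice of the tagged libraries. With line and time as terms and 8 fasted against 8 fed pools, 16 of 45 tested genes were called, 7 higher and 9 lower, beside 27% of 13562 genes, 12.1% higher and 14.9% lower. Sult2a1 had 152.6, 104, 104.3 and 234 CPM in the fasted pools of the hepatocyte line at 3, 8, 16 and 24 h, against 28.3, 13.2, 84.6 and 24.5 CPM in the fed pools of that line. The fasted pool exceeded the fed pool of its time in all 4 pairs, and also in all 4 pairs of the macrophage line. Its mean log2 difference over the 16 pools was 2.08 ± 0.34 (edgeR BH-adjusted p = 0.00111), and Sult2a2 (1.46 ± 0.18), Sult2a3 (1.20 ± 0.33), Sult2a4 (1.81 ± 0.35) and Sult2a5 (1.19 ± 0.21) were called higher too. The Sult2a3 call was lost without the pools of 8, 16 or 24 h (log2 difference 0.97 to 1.31). Sult2a8 had 251, 182, 258 and 272 CPM in the 4 fasted pools of the hepatocyte line, against 324, 685, 704 and 599.8 CPM in its fed pools, and was lower in all 8 pairs of both lines, by -1.46 ± 0.23 (edgeR BH-adjusted p = 0.000767).

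**Figure D4:**
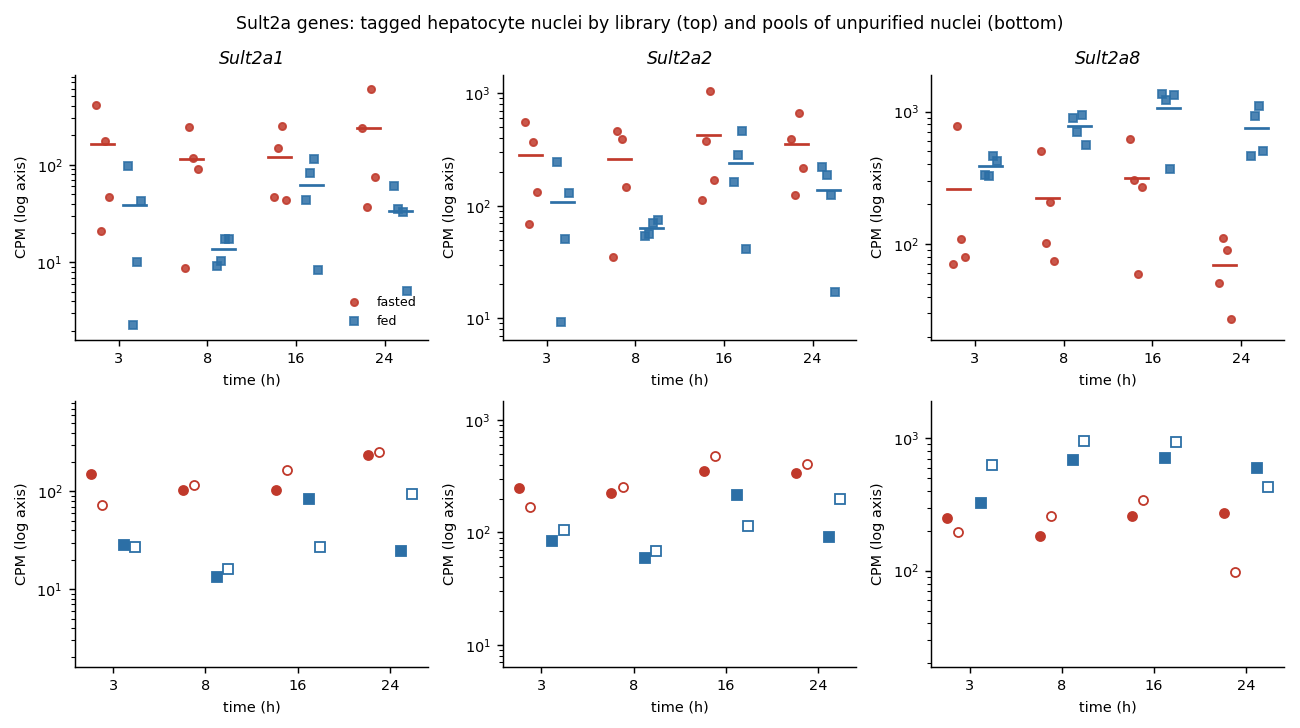
CPM on a log axis of Sult2a1, Sult2a2 and Sult2a8 at 3, 8, 16 and 24 h in hepatocyte-tagged libraries (top; lines are group means, n = 4) and in pools of 4 mice (bottom; filled marks are the hepatocyte line, hollow marks the macrophage line), with fasted as circles left of fed as squares. Fasted and fed tagged libraries of Sult2a1 overlap widely, while its fasted pool is above the fed pool of the same time and line in each of 8 pairs.

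The other genes called in pools were Gstp2 (1.46 ± 0.26) and Gstp1 (0.84 ± 0.18), both higher, and Gstm6 (-1.36 ± 0.22), Gstt1 (-1.12 ± 0.13), Sult1c2 (-1.11 ± 0.21), Ugt2b37 (-1.40 ± 0.40), Gsta3 (-0.69 ± 0.09), Gsta4 (-0.68 ± 0.14), the Ugt1a locus (Ugt1a10, -0.52 ± 0.15) and Ugt2b1 (-0.50 ± 0.16), all lower. Each of these had been called in the same direction at 1 or more times in tagged hepatocyte nuclei. The pool calls of the Ugt1a locus and of Ugt2b1 were each lost in 3 of the 4 fits that left out the pools of 1 time, and that of Ugt2b37 without the pools of 8 h (-1.55).

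Of the remaining sulfotransferases, Sult5a1 fell late. At 16 h it had 55.7, 58.8, 24.8 and 61.6 CPM in the 4 fasted libraries, against 242, 122, 124 and 123 CPM in the 4 fed libraries, and at 24 h 59.2, 46.8, 44.1 and 81.8 CPM in the 4 fasted libraries, against 185, 220.1, 146 and 125 CPM in the 4 fed libraries. Neither time showed overlap, and the log2 difference was -1.64 ± 0.32 at 16 h (edgeR BH-adjusted p = 0.000766) and -1.64 ± 0.32 at 24 h (edgeR BH-adjusted p = 0.000578). Sult3a1, an amine sulfotransferase, was called lower at 8 h (-1.61 ± 0.60) and 24 h (-1.76 ± 0.60). At 24 h Sult3a1 had 59.1, 49.2, 47.2 and 9.45 CPM in the 4 fasted libraries, against 137, 80.8, 128 and 190.0 CPM in the 4 fed libraries, and fasted replicate 4 was the lowest by far. That call was lost in 5 of the 8 fits that left out 1 library (log2 difference -1.86 to -1.43) and with no filter on low counts (-1.75), and the 8 h call in 6 of the 8 fits that left out 1 library (log2 difference -1.66 to -1.33) and with no filter on low counts (-1.59).

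The UDP-glucuronosyltransferases had no called gene at 16 h in hepatocyte nuclei (1 of 11 at an unadjusted edgeR p under 0.05, and 0 by DESeq2) and differed from one another at the other times. Ugt2b37 showed the largest log2 difference of the family. At 24 h it had 0.982, 0.724, 0.764 and 1.35 CPM in the 4 fasted libraries, against 7.67, 2.93, 14.0 and 20.02 CPM in the 4 fed libraries. The fed libraries ranged widely but none reached down to the fasted ones, and the log2 difference was -3.68 ± 0.57 (edgeR BH-adjusted p = 4.31e-05). Ugt2b1 also fell at 24 h, where it had 19.8, 24.6, 23.9 and 14.7 CPM in the 4 fasted libraries, against 45.0, 45.8, 75.7 and 90.5 CPM in the 4 fed libraries. On the log2 scale the difference was -1.70 ± 0.40 (edgeR BH-adjusted p = 0.00301) without overlap. The Ugt1a locus (Ugt1a10), which includes the bilirubin-conjugating enzyme, had 35.3, 53.5, 37.8 and 22.6 CPM in the 4 fasted libraries, against 87.7, 67.8, 74.1 and 60.4 CPM in the 4 fed libraries at 8 h. No fasted library reached the fed range, and the log2 difference was -0.93 ± 0.33 (edgeR BH-adjusted p = 0.0273), and fell by -0.95 ± 0.33 on the log2 scale at 24 h. The 8 h call was lost in 5 of the 8 fits that left out 1 library (log2 difference -0.92 to -0.77). The 24 h call was lost in 5 of the 8 fits that left out 1 library (log2 difference -0.93 to -0.78) and with no filter on low counts (-0.95).

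Within the Ugt2b cluster on chromosome 5, Ugt2b34 and Ugt2b35 were lower at 3 h and higher at 8 h. At 3 h Ugt2b35 had 22.2, 46.5, 20.8 and 32.6 CPM in the 4 fasted libraries, against 75.2, 89.8, 89.3 and 75.6 CPM in the 4 fed libraries. The groups did not overlap, with a log2 difference of -1.23 ± 0.37 (edgeR BH-adjusted p = 0.00893), and Ugt2b34 differed by -0.88 ± 0.23 at that time (edgeR BH-adjusted p = 0.00349). At 8 h Ugt2b35 had 213, 89.6, 177 and 39.4 CPM in the 4 fasted libraries, against 64.6, 50.6, 67.8 and 72.3 CPM in the 4 fed libraries. Fasted replicates 1 and 3 were well above the fed range, replicate 2 just above and replicate 4 below it, and the call (1.02 ± 0.36) was lost without fasted replicate 1, fed replicate 2 or fasted replicate 3 (log2 difference 0.70 to 0.92) and with a fit to the 8 libraries of that time alone (1.01). Ugt2b5 had 599, 268, 575 and 121 CPM in the 4 fasted libraries, against 175, 140.4, 220.4 and 206 CPM in the 4 fed libraries at 8 h, with the same 2 libraries highest and fasted replicate 4 lowest (1.07 ± 0.32, edgeR BH-adjusted p = 0.00832). Fasted replicates 1 and 3 are also the fasted libraries in which Sult1d1 was lowest at 8 h. The 8 h call of Ugt2b34 (0.62 ± 0.23) was lost in 6 of the 8 fits that left out 1 library (log2 difference 0.39 to 0.64) and with a fit to the 8 libraries of that time alone (0.61), and that of Ugt2b5 with a fit to the 8 libraries of that time alone (1.06). Ugt2a3 was called lower at 3 h (-1.28 ± 0.50), where fasted replicate 2 lay within the fed range, and lost in 6 of the 8 fits that left out 1 library (log2 difference -1.29 to -1.04), with no filter on low counts (-1.27) and with the run of library numbers as a term (-1.25). Ugt2b36, Ugt2b38, Ugt3a1 and Ugt3a2, the last pair of a family that uses other sugars, were not called by edgeR, and DESeq2 called Ugt2b38 at 8 h.

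Many of these genes followed the clock hour in fed mice. In fed hepatocyte nuclei the level of 18 of 45 genes differed between the 4 times, beside 30.1% of all genes tested, and in fed macrophage-tagged nuclei that of 16 of 46, beside 12.8%. Gstm7 had the smallest p in both. In fed hepatocyte libraries it averaged 10.9 ± 2.7 CPM at 3 h (zeitgeber time 15), 18.3 ± 2.1 CPM at 8 h (time 20), 8.63 ± 2.94 CPM at 16 h (time 4) and 0.96 ± 0.86 CPM at 24 h (time 12; SD, n = 4 each). In fasted hepatocyte libraries Gstm7 averaged 2.99 ± 0.79, 7.33 ± 1.53, 7.63 ± 2.01 and 3.29 ± 1.03 CPM at these times (SD, n = 4 each). The Ugt1a locus (Ugt1a10) peaked elsewhere: its fed hepatocyte mean was 97.9 ± 32.9 CPM at 3 h, 72.5 ± 11.6 at 8 h, 18.4 ± 3.0 at 16 h and 145 ± 42 CPM at 24 h. Ugt2b37 averaged 11.2 ± 7.5 CPM in fed hepatocyte libraries at 24 h and 2.66 to 4.92 CPM at the other 3 times.

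The fasting effect itself differed between times for 22 of the 45 genes in hepatocyte nuclei (32.8% of all genes) and for 6 of 46 in macrophage-tagged nuclei (4.65%). Without 1 replicate number in every group the counts were 8 to 17 and 0 to 4, with 8 and 0 without replicate 1, and 0 and 1 in macrophage-tagged nuclei without replicates 4 and 2. In hepatocyte nuclei the smallest edgeR BH-adjusted p were those of Gsto1 (5.57e-05) and Gstm7 (5.73e-05), then Gstm4 (0.000482) and Sult5a1 (0.000957). Among them only Gstm7 was called in both directions.

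In macrophage-tagged nuclei 46 of the 52 genes were tested. Fed levels in hepatocyte-tagged nuclei differed from those in macrophage-tagged nuclei for 42 of 47 genes, 40 of them higher in hepatocyte nuclei and 2 lower, beside 82.7% of all genes, 42.7% higher and 40% lower. Cell type coincides with mouse line in this comparison, and also with the series of library numbers in the titles. The only genes lower in fed hepatocyte nuclei were Sult4a1 (log2 difference -1.47), a sulfotransferase best known from brain, and Gstp2 (-0.50, lost in 2 of the 4 fits that left out 1 replicate number). Sult4a1 passed the count filter in the fit of macrophage-tagged libraries and not in that of hepatocyte-tagged ones. Its means over all times were 0.212 and 0.118 CPM, and its entry into the test favoured this direction. Against the pools of their own line, macrophage-tagged libraries were lower for 40 of 46 genes and higher for 1, Sult4a1 (1.08 ± 0.45), beside 76.8% of all genes, 40.7% lower and 36.2% higher. Those pools held only 0 to 8 counts of Sult4a1 each. The median log2 difference of the 46 genes to the pools was -1.20, and that of the hepatocyte markers was -1.24. Hepatocyte-tagged libraries were higher than their pools for 6 of 46 genes, Gsta3 (0.37), Gstk1 (0.33), Gstt2 (0.47), Gstz1 (0.36), Sult1a1 (0.38) and Ugt3a2 (0.33), and lower for none, beside 50.3% of all genes, 28.8% higher and 21.5% lower. Of these the calls of Gsta3 and Sult1a1 were lost under other scaling, with log2 differences of 0.34 and 0.35.

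Fasting changed some of the same genes in macrophage-tagged nuclei. At 3 h 9 genes were called, 3 higher and 6 lower, beside 12.4% of the 13864 genes tested (7.7% higher and 4.68% lower). At 8 h 8 were called, 5 higher and 3 lower, beside 12.8% (7.44% higher and 5.4% lower). At 16 h 9 were called, 4 higher and 5 lower, beside 13.7% (7.72% higher and 5.99% lower), and at 24 h 9, 5 higher and 4 lower, beside 11.7% (5.31% higher and 6.35% lower). Among 44 genes tested in both cell types, 9, 7, 2 and 5 were called in both at the 4 times, all in the same direction. That is 45%, 35%, 28.6% and 35.7% of the hepatocyte calls and 100%, 87.5%, 25% and 55.6% of the macrophage calls. Over all 12820 genes tested in both, 9.11%, 8.85%, 6.29% and 5.48% were called in both in the same direction. These are 22.8%, 22.8%, 34.6% and 22.8% of all hepatocyte calls and 70.4%, 67.1%, 45% and 47.7% of all macrophage calls. Hepatocyte markers moved in these libraries too: 3, 8, 3 and 1 of 17 were called higher at 3, 8, 16 and 24 h and none lower, with a median log2 difference of 0.84 at 8 h. Their part in the differences of the conjugation genes was not tested.

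Among called genes of at least 1 CPM, large differences in macrophage-tagged nuclei were those of Sult1d1 at 3 h and Ugt2b37 at 24 h, and of Sult2a1 at 8 h, whose call was not stable. Sult1d1 had 60.9, 41.4, 180.5 and 74.2 CPM in the 4 fasted libraries, against 14.3, 19.97, 10.2 and 8.99 CPM in the 4 fed libraries at 3 h. Its log2 difference was 2.95 ± 0.53 (edgeR BH-adjusted p = 0.000613). Ugt2b37 had 0.608, 0.726, 0.252 and 0.971 CPM in the 4 fasted libraries, against 7.63, 12.8, 3.64 and 5.47 CPM in the 4 fed libraries at 24 h. On the log2 scale the difference was -3.52 ± 0.58 (edgeR BH-adjusted p = 0.00012). Neither showed overlap, and fasted replicate 3, which stood apart over all genes at 3 h, had the highest Sult1d1. Sult2a8 was called lower at 8, 16 and 24 h (-1.50 ± 0.29, -1.13 ± 0.29 and -1.97 ± 0.30). Its 24 h values were 33.0, 29.1, 56.1 and 73.2 CPM in the 4 fasted libraries, against 258, 254, 117 and 145 CPM in the 4 fed libraries, without overlap (edgeR BH-adjusted p = 4.19e-05).

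Sult2a1 was called higher at 8 h (3.58 ± 1.14) and Sult2a5 at 16 h (2.85 ± 0.94), and both calls were lost, the first in 7 of the 8 fits that left out 1 library (log2 difference 2.99 to 4.15) and the second in 6 of the 8 fits that left out 1 library (log2 difference 2.13 to 3.12), with no filter on low counts (2.84) and with a fit to the 8 libraries of that time alone (2.83). At 3 h Sult1a1 (1.08 ± 0.22) and Sult1e1 (74 counts in fasted and 2 in fed libraries) were higher, and Sult2a7 (-2.60 ± 0.63), Gsta1 (-2.20 ± 0.58), Gstm4 (-1.34 ± 0.36), Gstm6 (-1.23 ± 0.37), Gstm7 (-1.24 ± 0.32) and Gstt1 (-0.76 ± 0.25) lower. Over a fed macrophage group the level of Sult1e1 was at most 0.254 CPM. It could not have passed the count filter on fed libraries alone, so its entry into the test favoured this direction. Gstm7, lower at 3 h, was higher at 24 h (1.70 ± 0.42, edgeR BH-adjusted p = 0.00637), the same turn as in hepatocyte nuclei. Gsto1 was higher at 8 h (0.83 ± 0.19) and 16 h (0.95 ± 0.19), and Gstk1 at 8 h and 24 h (0.89 ± 0.21 and 0.79 ± 0.21). Of these calls, that of Gsta1 was lost without fed replicate 1 (log2 difference -1.92), those of Gstk1 without fasted replicate 3 (log2 difference 0.63) at 8 h and without fasted replicate 1 or fed replicate 2 (log2 difference 0.71) at 24 h. The Gstm4 call was lost without fed replicate 1, fasted replicate 3 or fasted replicate 4 (log2 difference -1.26 to -1.13) and with a fit to the 8 libraries of that time alone (-1.32). At 3 h Gstm7 was lost without fed replicate 1 or fed replicate 3 (log2 difference -1.08 to -1.06) and with a fit to the 8 libraries of that time alone (-1.23), Gstm6 in 4 of the 8 fits that left out 1 library (log2 difference -1.11 to -1.05) and with a fit to the 8 libraries of that time alone (-1.23), and Gstt1 in 5 of the 8 fits that left out 1 library (log2 difference -0.79 to -0.61), with no filter on low counts (-0.75), with the run of library numbers as a term (-0.72) and with a fit to the 8 libraries of that time alone (-0.75).

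Some macrophage calls were of genes not called in hepatocyte nuclei at the same time. At 16 h Ugt2b35 had 55.3, 36.4, 101 and 130.0 CPM in the 4 fasted libraries, against 32.1, 27.2, 24.6 and 22.6 CPM in the 4 fed libraries. All fasted libraries were above all fed ones, and the log2 difference was 1.66 ± 0.38 (edgeR BH-adjusted p = 0.00442), and Ugt2b5 rose by 1.16 ± 0.29. In hepatocyte nuclei at 16 h the authors' deposited table gave 0.59 for Ugt2b35 and 0.58 for Ugt2b5, in the same direction and above its 0.05 threshold. Sult4a1 was called lower at 16 h (-1.79 ± 0.59) at under 1 CPM in each library, a call lost in 6 of the 8 fits that left out 1 library (log2 difference -1.92 to -1.43) and with no filter on low counts (-1.80), and it was not tested in hepatocyte nuclei. At 24 h Gstt3 (0.86 ± 0.27) and Sult1b1 (1.33 ± 0.35) were higher. The test of the difference between cell types, given below, called none of these genes at 16 or 24 h. Sult5a1 (-1.10 ± 0.26) and Ugt2b1 (-1.06 ± 0.29) were lower at 24 h, as in hepatocyte nuclei. The 24 h call of Gstt3 was lost in 6 of the 8 fits that left out 1 library (log2 difference 0.70 to 0.89), that of Sult1b1 without fed replicate 1 or fasted replicate 4 (log2 difference 1.10 to 1.12) and that of Ugt2b1 without fasted replicate 2 or fasted replicate 3 (log2 difference -0.99 to -0.98). No Ugt gene was called at 3 or 8 h by edgeR (1 and 3 of 11 at an unadjusted p under 0.05) or by DESeq2.

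The difference between the 2 cell types' fasting effects was itself tested, with the 64 tagged libraries fitted together. Cell type coincides with mouse line and with the series of library numbers in these libraries. A difference between cell types therefore cannot be told apart from one between lines or between those series. Of 47 genes 1 was called at 3 h (higher), 2 at 8 h (1 higher and 1 lower), 0 at 16 h and 1 at 24 h (lower), where higher means a higher value in hepatocyte nuclei. Over all 14011 genes 10.6% were called at 3 h (6.2% higher and 4.4% lower), 7.62% at 8 h (3.86% and 3.76%), 0.535% at 16 h (0.407% and 0.128%) and 4.05% at 24 h (2.1% and 1.95%). The clearest was Gstp2 at 8 h, with a difference of effects, hepatocyte minus macrophage, of 3.13 ± 0.56 on the log2 scale (edgeR BH-adjusted p = 0.000233). In macrophage-tagged nuclei Gstp2 had 2.30, 1.73, 4.82 and 2.41 CPM in the 4 fasted libraries, against 1.97, 2.63, 2.23 and 2.34 CPM in the 4 fed libraries, with overlap and a log2 difference of 0.38 ± 0.33 (edgeR BH-adjusted p = 0.496). Sult1a1 at 8 h differed by -1.25 ± 0.38 (edgeR BH-adjusted p = 0.0311), with fasting effects of -0.61 ± 0.31 in hepatocyte and 0.70 ± 0.21 in macrophage-tagged nuclei. The macrophage call was lost in 5 of the 8 fits that left out 1 library (log2 difference 0.57 to 0.70) and with a fit to the 8 libraries of that time alone (0.69). In hepatocyte nuclei its fasted replicates 1 and 3 were low at 26.6 and 31.5 CPM and replicates 2 and 4 within the fed range, and the difference was lost without replicate 1, 2 or 3 (-1.22 to -0.82). Gsto1 differed at 3 h by 0.94 ± 0.30 (edgeR BH-adjusted p = 0.0343), lost without replicate 2 or 3 (0.61 to 0.82), and at 24 h by -0.98 ± 0.30 (edgeR BH-adjusted p = 0.0484), lost without any 1 of the 4 replicate numbers, under another scaling and without the filter on low counts. At 16 h no gene was called by edgeR or by DESeq2, and 2 of 47 had an unadjusted edgeR p under 0.05. In unpurified pools, 1 per condition and line, Gstp2 at 8 h had 10.66 CPM fasted and 1.125 CPM fed in the hepatocyte line. In the macrophage line it had 3.066 and 1.667 CPM. Gsto1 at 24 h had 11.38 and 19.4 CPM in the hepatocyte line, and 14.32 and 9.683 CPM in the macrophage line. At 3 h Gsto1 was higher in the fasted pool of both lines (20.71 against 10.38 CPM, and 16.7 against 8.504 CPM). The parts of the line and of the series of library numbers were not tested.

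The supply of the conjugating groups was read in hepatocyte nuclei from lists of other genes, which were drawn up with earlier results of these data known. Their counts stand beside 19.5%, 18%, 9.55% and 11.6% of all genes called higher and 20.4%, 20.7%, 8.55% and 12.4% called lower at 3, 8, 16 and 24 h. Of 10 tested genes of sulfate and PAPS supply, the 2 PAPS synthases fell at different times: Papss1 at 3 h (-1.10 ± 0.30) and 8 h (-1.69 ± 0.31), and Papss2 at 16 h (-0.95 ± 0.25) and 24 h (-2.06 ± 0.25, edgeR BH-adjusted p = 1.5e-06). Slc26a1, a sulfate transporter, fell at 8, 16 and 24 h (-1.09 ± 0.15, -1.21 ± 0.15 and -0.55 ± 0.15). Altogether, 0, 1, 1 and 1 of the 10 were called higher and 2, 2, 2 and 2 lower at the 4 times. Of the 5 genes listed for UDP-glucuronate supply, Ugdh, which makes the sugar donor, rose at 8 h (1.51 ± 0.28) and Slc35d1 at 16 h (0.53 ± 0.17). Slc35b1, whose part in this supply was not tested, was lower at 3 h (-2.50 ± 0.38) and 8 h (-0.90 ± 0.36).

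Of 16 tested genes of glutathione supply and turnover, 4, 8, 3 and 5 were called higher and 2, 4, 2 and 0 lower at 3, 8, 16 and 24 h. Mat1a, which makes S-adenosylmethionine, rose at all 4 times (1.63 ± 0.28, 1.35 ± 0.28, 1.02 ± 0.28 and 1.25 ± 0.28). Chac1, which degrades glutathione, rose at 3 h (5.56 ± 0.73) and 8 h (2.04 ± 0.61), and the glutathione reductase Gsr at 8, 16 and 24 h (0.53 ± 0.10, 0.38 ± 0.10 and 0.42 ± 0.10). Among 16 regulators 5, 3, 1 and 0 were called higher and 3, 3, 1 and 3 lower. The PXR gene Nr1i2 rose at 3 h (1.36 ± 0.20) and 8 h (0.86 ± 0.20), and Por, the reductase that serves cytochrome P450 enzymes, at the same times (2.79 ± 0.32 and 2.18 ± 0.32). The CAR gene Nr1i3 rose at 3 h (0.69 ± 0.27) and 16 h (0.91 ± 0.27), Ahr fell at 8 h (-1.04 ± 0.26), and the NRF2 gene Nfe2l2 was not called. Of 19 other conjugating enzymes 2, 0, 4 and 2 were called higher and 6, 8, 1 and 5 lower. Among them were the microsomal glutathione transferase Mgst3, lower at 3 h (-2.18 ± 0.53) and 8 h (-1.53 ± 0.52), and the nicotinamide methyltransferase Nnmt, higher at 3 h (1.49 ± 0.56) and 24 h (1.79 ± 0.56).

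The authors' deposited table of hepatocyte genes, a subset of 4745, held 36 of the 52 genes. An adjusted p under 0.05 stood there, in the authors' deposited table, for 15, 16, 5 and 10 of the 36 at 3, 8, 16 and 24 h. Of the genes called here and held in the authors' deposited table (16, 17, 5 and 12 at the 4 times), all had the same sign there, from the same libraries. The calls differed for some genes. Sult2a8 at 16 h (authors' adjusted p = 0.0105) and Sult2a4 at 8 h (0.0296) were not called here by edgeR. Called here and above 0.05 there were Gsta3 at 3 h (0.109), Gstp1 at 16 and 24 h (0.0615 and 0.0534) and Ugt2b34 at 8 h (0.0992). So was the Ugt1a locus at 8 and 24 h (0.0879 and 0.0911). The authors' deposited table of macrophage genes, a subset of 3762, held 0 of the 52.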

How the data were processed

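Nuclear RNA of 80 liver libraries was analysed from the deposited table of raw counts per gene, in which column titles match the samples. Per the submitters' processing notes the authors used STAR 2.4.2a, DESeq2 1.24.0 and build mm10, and the counting tool is not given. Per the labels' protocols, total RNA was made into stranded libraries without poly-A selection and sequenced in pairs of 50 bases. Lengths in the table are those of whole gene bodies. The authors also deposited tables for a subset of genes per cell type, with log2 fold changes of fasted over fed, adjusted p-values and a signal per library (counts divided by a size factor), and the choice of that subset is not stated.

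Counts were fitted in R 4.3.3 with edgeR 4.0.16 (filterByExpr with count minimum 10 and total minimum 15, TMM scaling, robust quasi-likelihood F-test, Benjamini-Hochberg adjustment over all genes tested, threshold 0.05). Standard errors come from the F statistic. Each fasting contrast was taken from the fit of all 32 tagged libraries of a cell type. Tagged nuclei were compared with pools within conditions, and pools were fitted with line and time. The edgeR fits were tested on simulated counts. CPM is a count per library total. The members, through the choice of this enzyme family, and the gene lists were chosen with earlier results of these data known, although the rule on symbols uses no measured value.

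The genes with values in every library were taken from the 3 highest and 3 lowest called genes of at least 1 CPM at each time in hepatocyte nuclei, and the 2 highest and 2 lowest in macrophage nuclei. Further sources were the best expressed genes, those with the smallest p for time of day, those that differ between cell types and those that lead in pools. Some further genes of the same clusters are shown with library values, chosen after their values were seen. Alternatives were RLE scaling, no filter, DESeq2 1.42.0, the run of library numbers as a term, the 8 libraries of a time alone, and leaving out libraries. Replicates are numbered in accession order.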

Additional observations from a re-analysis of the deposited data

Results flagged for a closer look

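In 132 groups of 4 tagged libraries looked at for the genes described, 10, all of hepatocyte nuclei, had 1 library far from the other three by Dixon's test of the gap to the nearest library. Chance flags about 1 in 20 groups. Sult5a1 had 24.8 CPM in fasted replicate 3 at 16 h, where the other fasted libraries had 55.7 to 61.6 CPM, and 242 CPM in fed replicate 1 at 16 h, where the others had 122 to 124 CPM. Sult2a8 had 775 CPM in fasted replicate 2 at 3 h, where the others reached 109 CPM, and 371 CPM in fed replicate 3 at 16 h, where the others had at least 1217 CPM. Sult1d1 had 42.2 CPM in fasted replicate 2 at 16 h, above 28.6 CPM in the next library. Ugt2b37 stood apart in 3 fasted libraries: replicate 2 at 3 h (2.91 CPM), replicate 4 at 8 h (1.59 CPM) and replicate 4 at 16 h (3.56 CPM). In fed libraries, Gstm3 had 13.4 CPM in replicate 2 at 8 h and Gstm7 had 14.9 CPM in replicate 1 at 3 h.

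The fasting effect was called different between hepatocyte and macrophage nuclei, as hepatocyte minus macrophage log2 difference by edgeR, for Gstp2 at 8 h (3.13), Gsto1 at 3 h (0.94) and 24 h (-0.98) and Sult1a1 at 8 h (-1.25). The calls of Gsto1 and Sult1a1 were lost in fits that left out replicate numbers, as given above. Cell type coincides with mouse line and with the series of library numbers in these calls.

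The fasting effect differed between the 4 times for 22 genes in hepatocyte nuclei. Among Gst genes the edgeR BH-adjusted p was 5.57e-05 for Gsto1, 5.73e-05 for Gstm7, 0.000482 for Gstm4, 0.00298 for Gstm3, 0.0154 for Gsta4, 0.0209 for Gstp2, 0.0214 for Gstm6, 0.0225 for Gstm2, 0.0352 for Gsta1 and 0.0472 for Gstm1. Among Sult genes it was 0.000957 for Sult5a1, 0.00106 for Sult1d1, 0.00159 for Sult1a1, 0.011 for Sult2a7 and 0.0117 for Sult3a1. Among Ugt genes it was 0.00504 for Ugt2b37, 0.00531 for Ugt2b34, 0.00655 for Ugt2b35, 0.0116 for Ugt2b5, 0.018 for Ugt2b38, 0.0425 for Ugt2b1 and 0.0443 for the Ugt1a locus. In macrophage-tagged nuclei it differed for 6: Gstm7 (edgeR BH-adjusted p = 0.00518), Sult1a1 (0.0146), Sult5a1 (0.0239), Sult2a7 (0.0253), Ugt2b37 (0.0317) and Gstm4 (0.0339).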

How the results depend on the processing

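Of 206 calls of single genes, 145 were kept under every alternative run, 60 were lost in at least 1 fit that left out libraries, 25 under at least 1 other setting, and 0 changed direction. The 206 hold more than the fasting calls in tagged nuclei. They take in 42 calls of fed levels between cell types, 41 and 6 calls of macrophage-tagged and hepatocyte-tagged nuclei against pools and 16 calls in pools. They also hold the calls of fasting effects that differ between cell types. The 145 therefore do not give the stability of the fasting calls alone. Some counts of called genes moved by over 1.5 times. Fitted to the 8 libraries of the time alone, macrophage nuclei had 3 called genes at 3 h and 14 at 24 h, in place of 9 at each. DESeq2 called 13 genes, in place of 6, whose fasting effect differs between times in macrophage nuclei. It called 2, 4 and 2 genes whose effect differs between cell types at 3, 8 and 24 h, in place of 1, 2 and 1, and without the filter on low counts the 24 h count was 0. Fits that left out 1 library gave 9 to 13 called genes at 24 h in hepatocyte nuclei, in place of 14, with 9 without fed replicate 3 or fed replicate 4. In macrophage nuclei they gave 4 to 11 at 3 h, with 4 without fed replicate 1, and 3 to 7 at 8 h, in place of 8, with 3 without fasted replicate 3 and 4 or 5 without fasted replicate 1 or 2 or any fed replicate. Fits that left out a replicate number from every group gave 8 to 17 genes, in place of 22, whose effect differs between times in hepatocyte nuclei, with 8 without number 1. In macrophage nuclei this gave 0 to 4, in place of 6, with 0 without number 1 or 4 and 1 without number 2, and for fed time of day 7 to 13, in place of 16, with 9 without number 2 and 7 without number 4. Between cell types it gave 0 to 1 at 3 h, with 0 without number 3, 1 to 3 at 8 h, with 1 without number 1 or 2, and 0 to 2 at 24 h, with 2 without number 3 and 0 without any other. Hepatocyte-tagged nuclei against pools gave 4 to 10, in place of 6, with 10 without number 4. The causes were not tested. Values of weakly expressed genes, such as Gsto2 and fed Sult1e1, rest on few counts, and errors cover the spread between these libraries only. The labels give no replicate numbers, but library numbers in the titles run in consecutive sets. With these sets as a block in the model, 94 calls of single genes were kept and 3 lost, those of Ugt2a3 in hepatocyte nuclei at 3 h and of Gstt1 at 3 h and Gstm6 at 8 h in macrophage nuclei, and no count of calls moved by over 1.5 times.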
